A study of Mus musculus with 6 samples.

Results

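The Hox genes of the mouse uterus were examined in mice with stabilised β-catenin. The members are all genes whose symbol is Hox, a cluster letter from a to d, and a number, read from probe sets that carry exactly 1 gene symbol. Where several probe sets read 1 gene, the set with the highest mean over all arrays stood for it. This gave 33 Hox genes, read by 48 probe sets, among 18193 genes on the arrays.

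The arrays held RNA of whole uteri from female mice aged 4 weeks, with 3 control arrays and 3 mutant arrays. Mutant mice were Pgr cre/+ Ctnnb1f(ex3)/+: Cre recombinase is made from the progesterone receptor gene Pgr, and it deletes exon 3 of 1 Ctnnb1 allele in cells that express Pgr, which leaves a β-catenin that escapes degradation. The sample labels call the control mice wild type, whereas the paper gives the genotypes Pgr cre/+ and Ctnnb1f(ex3)/+ for its controls, so it cannot be told which alleles a control array carried. According to the methods, RNA of 3 mice per genotype was pooled. It cannot be told whether the arrays of a group are separate animals, and the p-values below measure only the spread between arrays, which may be technical.

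Hox genes encode transcription factors with a homeodomain. They sit in 4 clusters, and genes near one end of a cluster, with low paralog numbers, are active towards the head, while genes with high paralog numbers are active towards the tail. In the female reproductive tract, genes at the tail end of the a cluster mark successive segments of the Müllerian duct: Hoxa9 the oviduct, Hoxa10 the uterus, Hoxa11 the uterus and cervix, and Hoxa13 the cervix and upper vagina. In the adult uterus, Hoxa10 and Hoxa11 are needed for the stroma to respond to progesterone and for implantation. Hox proteins bind DNA together with cofactors of the PBX, MEIS and PKNOX families. The comparison asks whether stabilised β-catenin in Pgr-expressing cells went with other levels of these genes.

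β-catenin acts on DNA through TCF/LEF factors, and CTTTGA is a form of their motif. For that reason the promoters of Hoxc4 and Hoxd11, which were higher in the mutant, and of Hoxa10, whose 2 probe sets differed, are shown first. They are RefSeq sequences of build GRCm38.p6, from 250 bases before to 50 bases after a transcript start, printed 5′ to 3′ on the strand of the gene, with each CTTTGA, or TCAAAG for the opposite strand, in capitals. The coordinates are chr15:103034145-103034444 on the plus strand for Hoxc4, chr2:74679308-74679607 and chr2:74682073-74682372 on the plus strand for Hoxd11, and chr6:52234890-52235189 and chr6:52240805-52241104 on the minus strand for Hoxa10.
Hoxc4 promoter: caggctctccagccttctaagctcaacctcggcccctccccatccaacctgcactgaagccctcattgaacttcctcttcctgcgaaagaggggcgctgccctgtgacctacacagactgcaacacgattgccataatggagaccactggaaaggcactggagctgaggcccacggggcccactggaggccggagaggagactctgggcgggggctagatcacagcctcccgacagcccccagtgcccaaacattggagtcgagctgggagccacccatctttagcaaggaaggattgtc
Hoxd11 promoter, first start: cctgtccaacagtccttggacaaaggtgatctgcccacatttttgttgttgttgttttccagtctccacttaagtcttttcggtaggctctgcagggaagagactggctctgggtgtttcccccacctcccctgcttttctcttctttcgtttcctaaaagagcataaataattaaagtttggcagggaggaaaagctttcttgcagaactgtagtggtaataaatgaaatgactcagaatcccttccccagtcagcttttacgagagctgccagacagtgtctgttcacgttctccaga
Hoxd11 promoter, second start: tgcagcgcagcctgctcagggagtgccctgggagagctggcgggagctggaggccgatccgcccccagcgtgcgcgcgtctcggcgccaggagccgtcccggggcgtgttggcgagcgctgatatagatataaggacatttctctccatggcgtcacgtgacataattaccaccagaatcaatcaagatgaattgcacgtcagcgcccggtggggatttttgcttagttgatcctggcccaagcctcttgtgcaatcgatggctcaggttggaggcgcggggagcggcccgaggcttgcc
Hoxa10 promoter, first start in coordinates: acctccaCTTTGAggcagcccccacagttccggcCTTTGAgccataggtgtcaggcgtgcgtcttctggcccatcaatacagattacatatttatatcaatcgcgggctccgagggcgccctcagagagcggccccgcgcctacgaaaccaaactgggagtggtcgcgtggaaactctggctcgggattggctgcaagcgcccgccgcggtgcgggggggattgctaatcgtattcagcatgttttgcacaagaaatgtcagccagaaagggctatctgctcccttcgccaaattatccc
Hoxa10 promoter, second start in coordinates: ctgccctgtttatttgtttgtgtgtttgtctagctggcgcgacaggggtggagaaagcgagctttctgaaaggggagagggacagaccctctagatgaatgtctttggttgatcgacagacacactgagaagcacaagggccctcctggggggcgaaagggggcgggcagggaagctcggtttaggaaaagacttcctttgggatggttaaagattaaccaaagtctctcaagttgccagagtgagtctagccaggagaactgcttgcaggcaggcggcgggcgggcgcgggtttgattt

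Of the 33 Hox genes, 19 had a promoter in the RefSeq table, with 21 promoters in all, and 14 had none there, Hoxb9 among them. The motif was found in 4 of the 21 Hox promoters, or 19%, against 5257 of 32851 promoters of all genes, or 16%. The Hoxa10 promoter at the lower coordinates held 2 copies, 1 Hoxd8 promoter held 2, and the promoters of Hoxa11 and Hoxd12 held 1 each. Neither the Hoxc4 promoter nor the Hoxd11 promoters held CTTTGA or TCAAAG. Other forms of the motif were not searched. A match is a string of letters in a window and does not show that a factor binds there.

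Across the arrays, 3 Hox genes were higher in the mutant uterus, Hoxc4, Hoxd11 and Hoxb9, and none was lower. The other 30 Hox genes did not pass the test, among them Hoxa9, Hoxa10 and Hoxa11, the segment genes of oviduct and uterus. The test was limma on log2 intensities of all 18193 genes, with an adjusted p under 0.05 as the threshold. The 3 called genes are 9.09% of the Hox genes, and over all genes 5.61% were called higher and 6.36% lower. At an unadjusted p under 0.05, limma had 6 Hox genes higher and 0 lower, where 12.0% and 14.4% of all genes were. The methods' t-test, run here on the same log2 values gene by gene, had 4 higher and 0 lower at that unadjusted p, where 10.6% and 12.2% of all genes were. After adjustment it called 0 Hox genes, and 105 genes higher and 39 lower in all, against 1021 and 1157 by limma. On the log2 scale, the self-test on simulated arrays recovered 34% of rises of 0.5, 86% of rises of 1 and 72% of falls of 1. A small change in a Hox gene could thus be missed with 3 arrays in each group. The simulation held fewer changed genes than were called here, so these shares need not carry over. These are bulk samples, in which fewer cells of a type and less RNA per cell cannot be told apart.

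The median log2 fold change of the Hox genes, mutant over control, was 0.07, against −0.01 for all genes. Their median absolute log2 fold change was 0.11, against 0.13 for all genes. The log2 fold changes ran from −0.21 for Hoxa3 to 1.53 for Hoxc4, with 24 above 0 and 9 below 0. All 3 mutant arrays lay above all 3 control arrays for 8 Hox genes, Hoxb7, Hoxb9, Hoxc4, Hoxc6, Hoxc8, Hoxc10, Hoxc13 and Hoxd11. That is 24.2% of the Hox genes, beside 14.9% of all genes. All mutant arrays lay below all control arrays for 2 Hox genes, Hoxa3 and Hoxb1, or 6.06%, beside 17.4% of all genes. For the remaining 23 the groups overlapped.

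**Figure D1:**
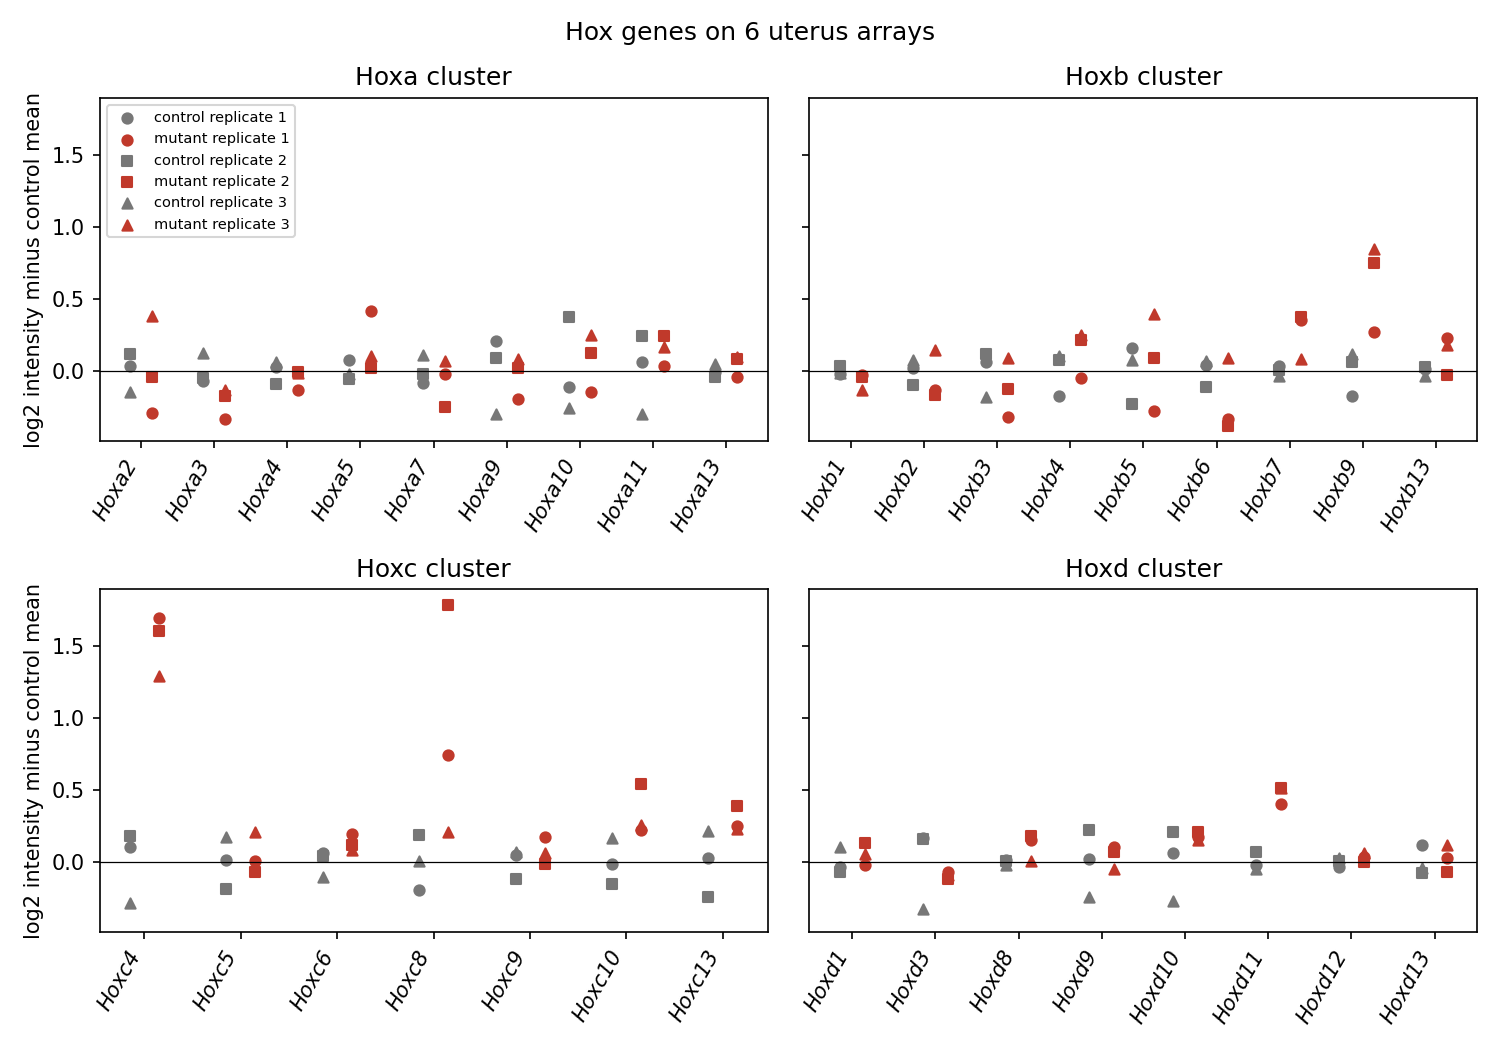
Log2 intensity of each of the 33 Hox genes on each of the 6 arrays, less the mean of that gene's control arrays, by cluster; grey marks are control and red marks mutant, and the shape gives the replicate number. Hoxc4, Hoxb9 and Hoxd11 have all red marks above all grey marks, and Hoxc8 has 1 mutant array far above the rest.

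Many Hox genes were dim on these arrays. The mean over the 6 arrays was above an intensity of 16, which is 4 on the log2 scale, for 12 Hox genes and below it for 21. These 12 were Hoxa5, Hoxa9, Hoxa10, Hoxa11, Hoxb2, Hoxb3, Hoxb4, Hoxb6, Hoxd8, Hoxd9, Hoxd10 and Hoxd11, and no gene of the c cluster was among them. Hoxd3 lay just below, with 4.20, 4.19 and 3.71 in control replicates 1 to 3 and 3.97, 3.91 and 3.94 in mutant replicates 1 to 3, and Hoxb4 just above. Of the 12, only Hoxd11 was called, which is 8.33%. Of the 10253 genes with a mean above 16, 17.2% were called in either direction. Among the 21 dim Hox genes 2 were called, or 9.52%, beside 5.19% of the 7940 genes with a mean below 16. All mutant arrays lay above all control arrays for 7 of these 21 and for 718 of the 7940. They lay below for 2 of the 21 and for 701 of the 7940. A change in a dim gene may be understated, since a low intensity is made up in large part of background signal.

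**Figure D2:**
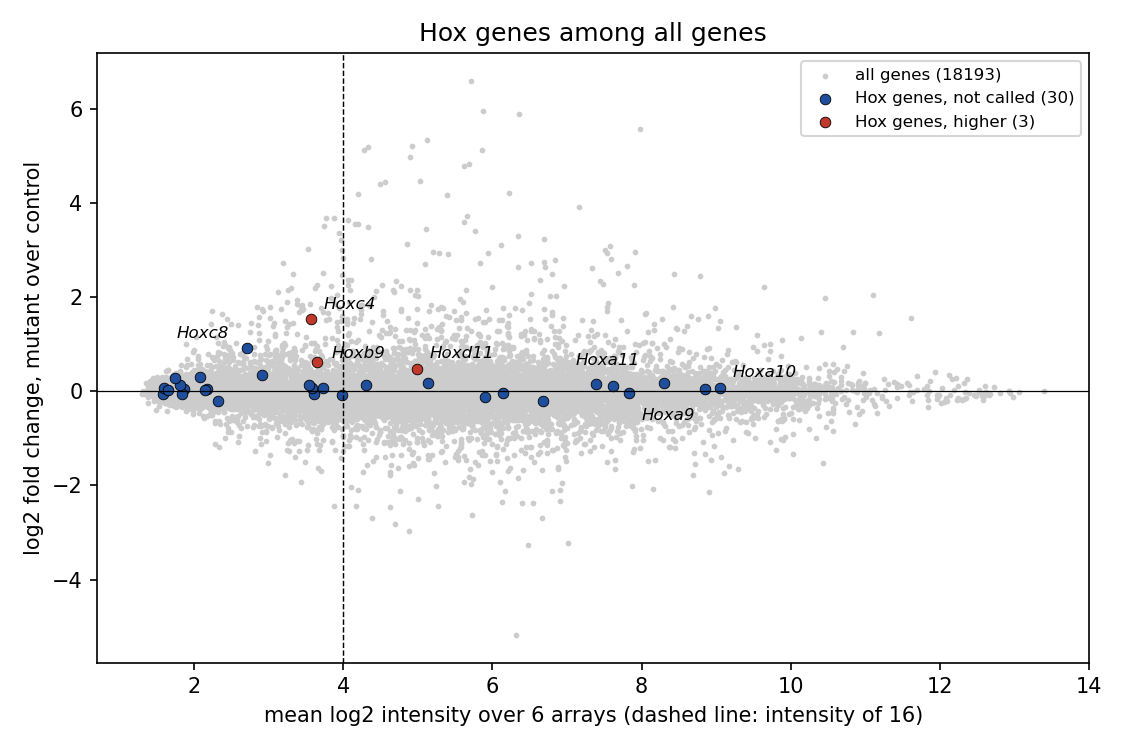
Log2 fold change, mutant over control, against the mean log2 intensity over 6 arrays, for all 18193 genes in grey, the 30 Hox genes not called in blue and the 3 called higher in red; an intensity of 16 is dashed. The called Hoxc4 and Hoxb9 lie left of the line, Hoxd11 lies right of it, and Hoxa9, Hoxa10 and Hoxa11 lie near a log2 fold change of 0.

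The segment genes of the a cluster are taken first. Hoxa10, which gives the uterus its identity, read 8.90, 9.39 and 8.75 on the log2 scale in control and 8.87, 9.14 and 9.26 in mutant, each from replicate 1 to replicate 3 as in the values that follow. The groups overlapped, with a log2 fold change of 0.07 ± 0.18 (SE, n = 3 arrays per group), an adjusted p of 0.843 by limma and a 95% confidence interval from −0.34 to 0.49. Hoxa11, a gene of uterine stroma, read 7.37, 7.56 and 7.01 in control and 7.35, 7.56 and 7.48 in mutant. Control replicate 3 was the lowest of these 6 values, and the log2 fold change was 0.15 ± 0.14, with an interval from −0.19 to 0.48 and an adjusted p of 0.589 by limma. Hoxa9, a gene of the oviduct segment, read 8.06, 7.94 and 7.55 in control and 7.65, 7.87 and 7.93 in mutant. Its groups overlapped too, with a log2 fold change of −0.03 ± 0.15, an interval from −0.37 to 0.31 and an adjusted p of 0.921 by limma.

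Hoxa13, which marks the lower end of the tract, was dim on every array, at 1.83, 1.80 and 1.89 in control and 1.80, 1.93 and 1.93 in mutant. Its log2 fold change was 0.05, with an adjusted p of 0.780 by limma. The other genes of paralog number 13 were as dim, with every array below an intensity of 16. Their log2 fold changes were 0.13 for Hoxb13, 0.29 for Hoxc13 and 0.03 for Hoxd13, and none passed the test. With 1 probe set for each gene, 0 of 9 genes of the a cluster were called by limma, 0 had an unadjusted p under 0.05 by limma or by the methods' t-test, and the median log2 fold change was 0.02. A second, dimmer probe set of Hoxa10 was called higher, at 1.29, and is described with the other probe sets.

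The d cluster held the one called gene that was above an intensity of 16 on every array. Hoxd11, whose product acts with that of Hoxa11 in limb and kidney, read 4.73, 4.82 and 4.70 in control and 5.15, 5.26 and 5.26 in mutant. The arrays were close within each group and the groups lay apart. The log2 fold change was 0.48 ± 0.08, or 1.39-fold, with an interval from 0.29 to 0.66 and an adjusted p of 0.00997 by limma. Without control replicate 1, the adjusted p was 0.0528 by limma at a log2 fold change of 0.47.

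The neighbours of Hoxd11 were not called. Hoxd10, next to it in the cluster, read 8.27, 8.41 and 7.93 in control and 8.38, 8.41 and 8.36 in mutant, with a log2 fold change of 0.18 and an adjusted p of 0.430 by limma. Hoxd9 read 8.85, 9.05 and 8.59 in control and 8.93, 8.90 and 8.78 in mutant, with a log2 fold change of 0.04 and an adjusted p of 0.871 by limma. Control replicate 3 was the lowest array for both genes. Hoxd8 differed little between arrays, at 7.58, 7.57 and 7.54 in control and 7.71, 7.75 and 7.57 in mutant, with a log2 fold change of 0.11 and an adjusted p of 0.441 by limma. On the other side of Hoxd11, Hoxd12 was below an intensity of 16 on every array, with a log2 fold change of 0.03. Of the 8 genes of the d cluster, 7 had a log2 fold change above 0, and the median was 0.05.

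In the c cluster, whose genes are known from the thoracic spine, limbs and skin rather than from the uterus, all 7 measured genes had a log2 fold change above 0, with a median of 0.29. All 7 had means below an intensity of 16. Hoxc4, the member with the lowest paralog number, read 2.91, 2.98 and 2.52 in control and 4.49, 4.41 and 4.10 in mutant. The 3 mutant arrays rose above an intensity of 16 and the 3 control arrays lay below it. The log2 fold change was 1.53 ± 0.15, or 2.89-fold, with an interval from 1.17 to 1.89 and an adjusted p of 0.0014 by limma. With every intensity under 16 set to 16, the log2 fold change was 0.33 and the adjusted p 0.228 by limma, and with the spread of Hoxc4 alone the adjusted p was 0.0580.

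Hoxc8 read 2.06, 2.44 and 2.26 in control and 3.00, 4.04 and 2.47 in mutant. Its mutant arrays were all above its control arrays, but they spread more widely than those of any other Hox gene, and mutant replicate 2 was far above the other 2. The log2 fold change was 0.91 ± 0.35, with an interval from 0.09 to 1.74 and an adjusted p of 0.147 by limma. Without mutant replicate 2 the log2 fold change was 0.48, with an adjusted p of 0.215 by limma, and without mutant replicate 3 it was 1.27, with an adjusted p of 0.0467.

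Hoxc10 read 2.72, 2.58 and 2.91 in control and 2.96, 3.28 and 3.00 in mutant, a log2 fold change of 0.34 with an adjusted p of 0.123 by limma. The groups did not overlap, but the gap between the highest control and the lowest mutant array was small. Hoxc5, Hoxc6 and Hoxc9, which lie between Hoxc4 and Hoxc10 in the cluster with Hoxc8, had log2 fold changes of 0.05, 0.13 and 0.07, and none passed the test. Hoxc4 was thus higher in the mutant than in control, beside a Hoxc5 whose groups overlapped. Hoxc5 read 2.17, 1.96 and 2.33 in control and 2.16, 2.08 and 2.36 in mutant.

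The b cluster held Hoxb9, a gene of the trunk and mammary gland. It read 3.16, 3.40 and 3.46 in control and 3.61, 4.09 and 4.19 in mutant, with mutant replicate 1 nearest to the controls. The log2 fold change was 0.62 ± 0.16, or 1.54-fold, with an interval from 0.25 to 1.00 and an adjusted p of 0.0461 by limma, just inside the threshold. It passed in 9 of 18 alternative settings, and leaving out any array but mutant replicate 1 ended the call, with adjusted p-values up to 0.155. Hoxb7 was at 1.64, 1.61 and 1.57 in control and 1.96, 1.98 and 1.69 in mutant, with a log2 fold change of 0.27 and an adjusted p of 0.131 by limma, at a level near the bottom of the scale.

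Hoxb6 had the lowest log2 fold change of the b cluster. It read 6.82, 6.67 and 6.84 in control and 6.44, 6.40 and 6.87 in mutant, so that mutant replicates 1 and 2 were below every control array and mutant replicate 3 was above them. The log2 fold change was −0.21, with an adjusted p of 0.395 by limma. Hoxb2, Hoxb3 and Hoxb4, known from the hindbrain and blood stem cells, had log2 fold changes of −0.05, −0.12 and 0.14, and their groups overlapped. The median over the 9 genes of the b cluster was 0.07.

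The head-end genes that remain were dim, apart from Hoxa5, and their groups differed little. Hoxa3, a gene of the neck and thymus, read 2.35, 2.37 and 2.54 in control and 2.09, 2.25 and 2.29 in mutant, a log2 fold change of −0.21 with an adjusted p of 0.201 by limma. Hoxa5, a gene of the lung, had a log2 fold change of 0.18 and an adjusted p of 0.390, from a probe set whose suffix marks possible cross-hybridization with other transcripts. The log2 fold changes of Hoxa2, Hoxa4, Hoxa7, Hoxb1, Hoxb5, Hoxd1 and Hoxd3 lay between −0.09 for Hoxd3 and 0.07 for Hoxb5, and none of them passed the test.

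**Figure D3:**
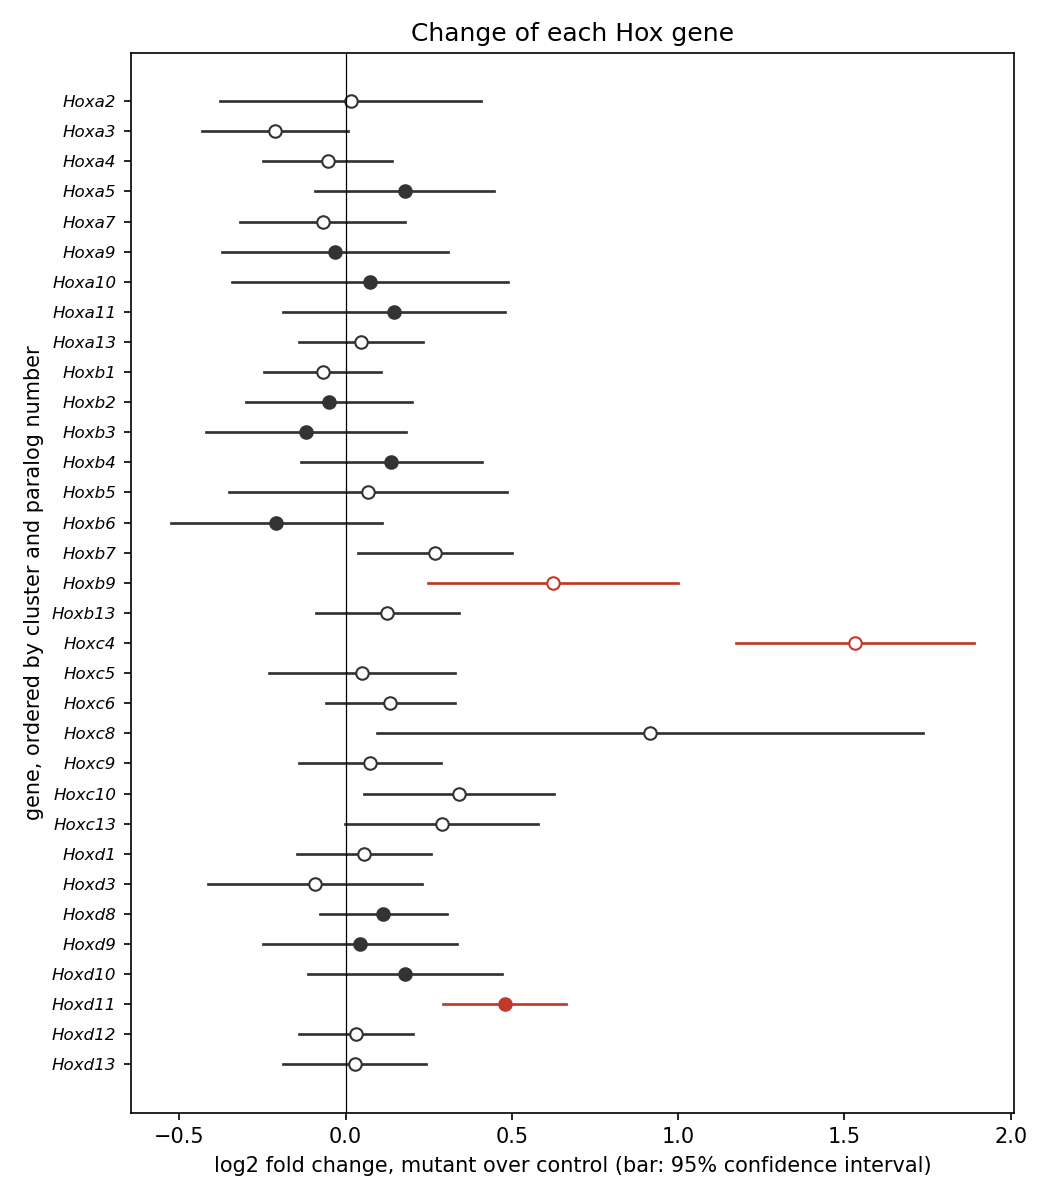
Log2 fold change of each Hox gene, mutant over control, with its 95% confidence interval from limma, ordered by cluster and paralog number; red marks genes called higher, and filled circles are genes whose mean over 6 arrays was above an intensity of 16. The 3 red intervals lie right of 0, and most of the others span 0.

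Grouped by paralog number, 1 of 10 genes with numbers 1 to 4 was called higher, beside 5.61% of all genes, with a median log2 fold change of −0.05. Of 9 genes with numbers 5 to 8, none was called by limma after adjustment, and the median was 0.11. At an unadjusted p under 0.05, 2 of these 9 were higher by limma, beside 12.0% of all genes. Of 14 genes with numbers 9 to 13, 2 were called higher, and the median was 0.10. The called genes were 1 with a low paralog number in the c cluster and 1 each with a high number in the b and d clusters. Counts this small, beside 5.61% of all genes called higher, cannot show a pattern by position. For the 11 genes with means above an intensity of 16 that were not called, no interval reached beyond a 1.44-fold difference in either direction.

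The control arrays were not alike for the brighter members. Control replicate 3 was the lowest control array for 8 of the 12 Hox genes with means above 16, and for 4186 of the 10253 genes of that kind in all. Without control replicate 3, Hoxc4 and Hoxd11 were called and Hoxb9 was not. The log2 fold changes of Hoxa9, Hoxa10 and Hoxa11 were then −0.18, −0.06 and −0.004, against −0.03, 0.07 and 0.15 with all arrays. Those of Hoxd8, Hoxd9 and Hoxd10 were 0.10, −0.08 and 0.04, against 0.11, 0.04 and 0.18. The small positive values of Hoxa10, Hoxa11, Hoxd9 and Hoxd10 thus depended on that array.

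Several genes were read by more than 1 probe set, 11 of the 33, and for Hoxa10 the sets disagreed. The dimmer Hoxa10 set read 2.97, 3.63 and 3.09 in control and 4.43, 4.67 and 4.45 in mutant. All its mutant arrays lay above all its control arrays, with a log2 fold change of 1.29 ± 0.17 and an adjusted p of 0.00374 by limma over all probe sets. In the same fit the brighter Hoxa10 set had a log2 fold change of 0.07 and an adjusted p of 0.857. When the sets of each gene were averaged, the log2 fold change of Hoxa10 was 0.68, with an adjusted p of 0.0382 by limma. Hoxa10 has 2 transcript starts in RefSeq, whose promoters are printed above. The files used here do not say which transcript each set reads, and whether the difference lies in a transcript or in the probes was not tested.

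Over all 48 Hox probe sets, 4 were called higher by limma, for Hoxc4, Hoxa10, Hoxd11 and Hoxb9, beside 8.41% of all probe sets called in either direction. The second set of Hoxa9 read 5.08, 5.12 and 4.92 in control and 5.25, 5.09 and 5.28 in mutant, with a log2 fold change of 0.17, and did not pass. The sets of Hoxd8 did not differ in call either, at 0.11 and 0.02. Hoxa3 was read by 4 sets, with log2 fold changes from −0.21 to 0.12, so its sign depended on the set.

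**Figure D4:**
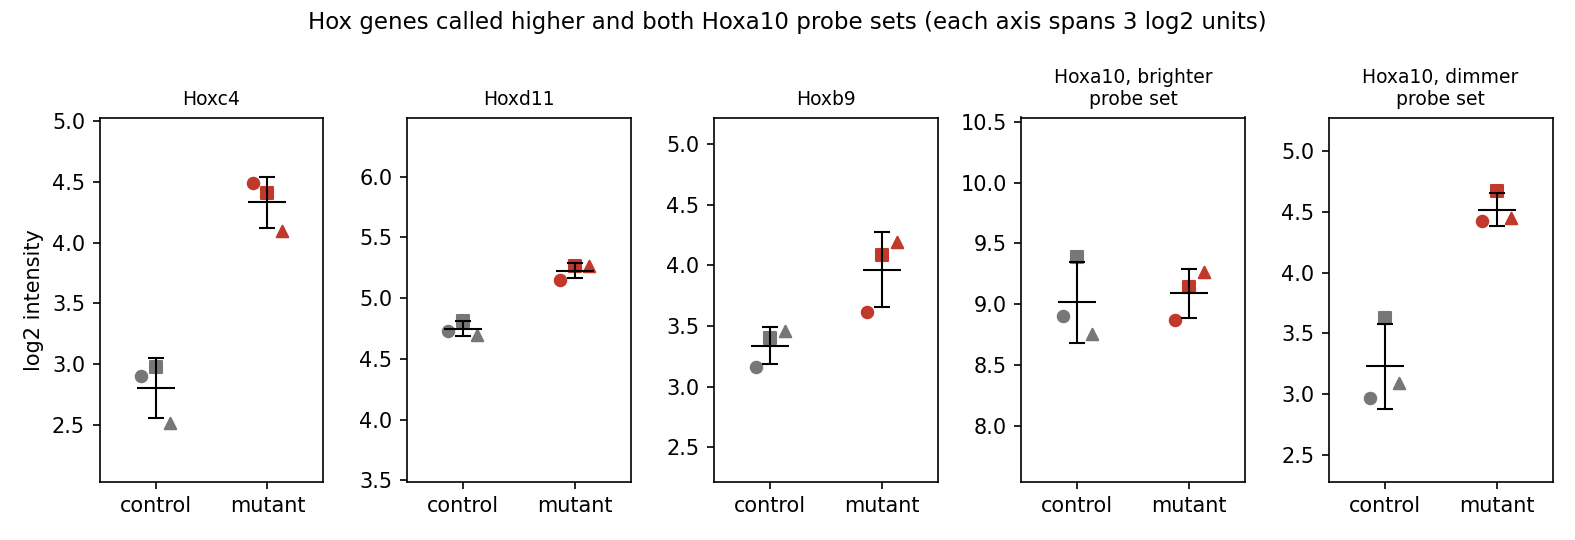
Log2 intensity by array for Hoxc4, Hoxd11, Hoxb9 and both Hoxa10 probe sets, control in grey and mutant in red, with the mean and SD of 3 arrays; each axis spans 3 log2 units and starts at its own value. The mutant arrays stand apart from the control arrays in every panel but that of the brighter Hoxa10 set.

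Of 8 measured genes for cofactors that bind DNA with Hox proteins, 2 were lower in the mutant, Meis1 and Pknox2, and the median log2 fold change was −0.13. Of all genes, 6.36% were called lower. At an unadjusted p under 0.05, limma had 1 cofactor higher and 3 lower, beside 12.0% and 14.4% of all genes. Meis1, a cofactor of tail-end Hox proteins in blood and limb, read 8.16, 8.18 and 7.94 in control and 7.56, 7.19 and 6.98 in mutant. Every mutant array was below every control array, with a log2 fold change of −0.85 ± 0.15 and an adjusted p of 0.0130 by limma. A second Meis1 probe set, at 4.57, 4.34 and 4.32 in control and 3.71, 3.78 and 3.31 in mutant, had a log2 fold change of −0.81 and an adjusted p of 0.0117 over all probe sets. The last Meis1 set, with a mean below an intensity of 16, was at 0.004. Meis1 did not pass in 4 of 18 alternative settings, and its adjusted p was 0.0593 by limma without control replicate 1 and 0.0550 without mutant replicate 2.

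Pknox2, a relative of the MEIS proteins, read 5.77, 5.89 and 6.07 in control and 5.56, 5.35 and 5.49 in mutant. Its log2 fold change was −0.44 ± 0.11, with an adjusted p of 0.0352 by limma, and it did not pass in 12 of 18 alternative settings. A second Pknox2 set, with a mean below an intensity of 16, was at −0.07. Its adjusted p was 0.739 by limma over all probe sets. Meis2 read 8.60, 8.78 and 8.59 in control and 8.48, 8.30 and 8.02 in mutant, without overlap, at a log2 fold change of −0.39 and an adjusted p of 0.0974 by limma. Pbx3 was at 5.47, 5.38 and 5.55 in control and 5.65, 5.79 and 5.79 in mutant, with a log2 fold change of 0.28 and an adjusted p of 0.0812. Pbx2 and Pknox1, at −0.15 and 0.10, did not pass. Meis2, Pbx3, Pbx2 and Pknox1 were named after their values had been seen.

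**Figure D5:**
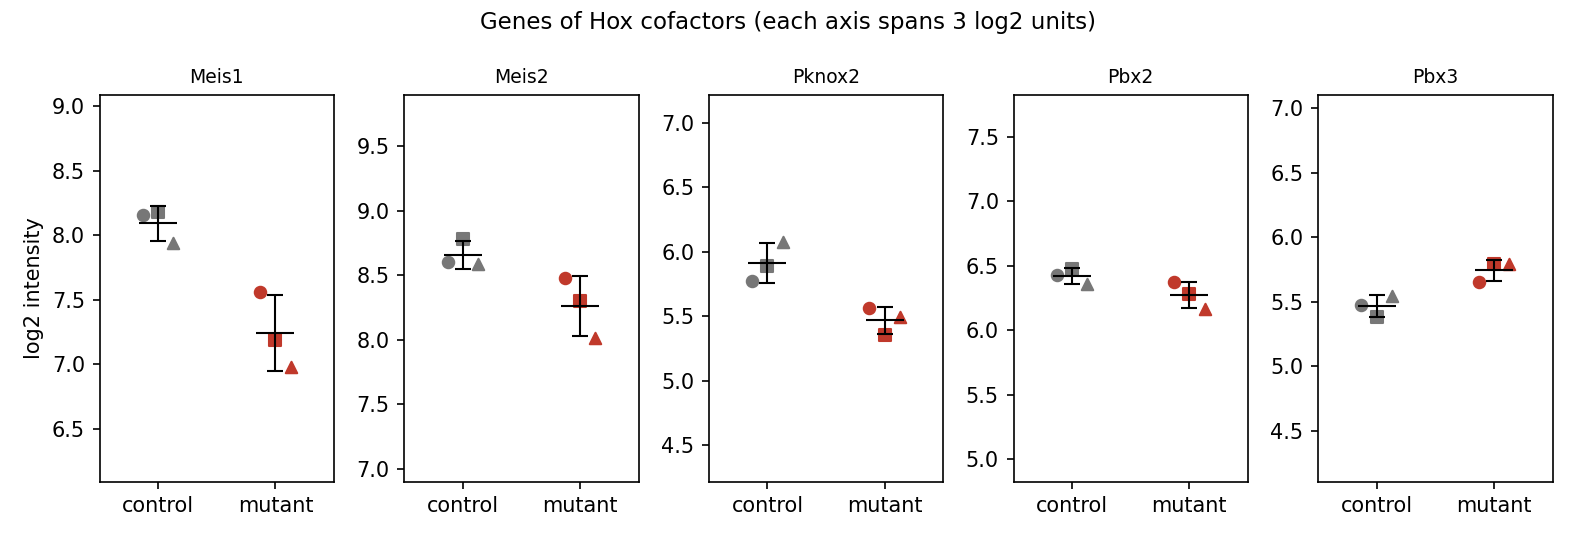
Log2 intensity by array for the cofactor genes Meis1, Meis2, Pknox2, Pbx2 and Pbx3, control in grey and mutant in red, with the mean and SD of 3 arrays; each axis spans 3 log2 units and starts at its own value. The mutant arrays lie below the control arrays for Meis1, Meis2 and Pknox2 and above them for Pbx3.

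Regulators that set Hox levels in the embryo gave few calls. The Cdx genes, which activate Hox genes in the tail bud, were all dim, and 0 of 3 passed, with none at an unadjusted p under 0.05 by limma or the methods' t-test. Of these, Cdx2 had a log2 fold change of −0.07 and Cdx1 of 0.05. Of 19 Polycomb genes, whose products keep Hox genes silent, 1 was lower, beside 6.36% of all genes, with a median log2 fold change of 0.04. At an unadjusted p under 0.05, limma had 2 of them higher and 4 lower, beside 12.0% and 14.4% of all genes. Cbx7, a Polycomb subunit that binds methylated histone H3, read 5.63, 5.60 and 5.30 in control and 4.98, 4.63 and 4.78 in mutant. The groups lay apart, at a log2 fold change of −0.72 ± 0.13 and an adjusted p of 0.0126 by limma. Its 2 other probe sets had means below an intensity of 16, at −0.13 and 0.06.

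Of 13 Trithorax group and histone demethylase genes, whose products keep Hox genes active, none passed by limma or, after adjustment, by the methods' t-test. At an unadjusted p under 0.05 both tests had 1 higher and 0 lower. The smallest p-values were those of Ash2l, with a log2 fold change of 0.29 and an adjusted p of 0.101 by limma, and Kdm6a, with −0.40 and 0.202. Of 6 retinoic acid receptor genes, none passed by either test after adjustment. Limma had 1 higher and 2 lower at an unadjusted p under 0.05, and the methods' t-test had 0 higher and 1 lower. These counts stand beside the same shares of all genes. Rarb, which retinoic acid induces, had a log2 fold change of 0.38 and an adjusted p of 0.0991, and Rxra had −0.20 and 0.148.

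The transcripts and genes that lie in or beside the clusters but do not match the Hox rule also gave no call among 9 measured, with a median log2 fold change of −0.01. At an unadjusted p under 0.05, limma had 1 higher and 1 lower, beside 12.0% and 14.4% of all genes. The methods' t-test had 1 higher and 2 lower, beside 10.6% and 12.2% of all genes, with 0 called after adjustment. The smallest p-values were those of Snx10 and Skap2, which flank the a cluster, with log2 fold changes of −0.38 and 0.33 and adjusted p-values of 0.0640 and 0.0991 by limma. The antisense transcript Hoxa11os, which lies opposite Hoxa11, had a log2 fold change of 0.01. Hoxd3os1 was at 6.13, 6.18 and 5.34 in control and 6.27, 6.46 and 6.17 in mutant, with a log2 fold change of 0.41 and an adjusted p of 0.286, and control replicate 3 was again the lowest array. Hoxa11os and Hoxd3os1 were named after their values had been seen.

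Of 27 genes that have been tied to Hoxa10 or Hoxa11 in the uterus, 6 were higher and 6 lower in the mutant, 44.4% of the list, with a median log2 fold change of −0.17. Over all genes 5.61% were higher and 6.36% lower, and 17.2% of the genes with means above an intensity of 16, as 22 of these 27 had, were called either way. The largest changes were those of Cdkn1a, a cell cycle inhibitor, at 2.94 with an adjusted p of 1e-04 by limma, Ihh, the hedgehog ligand of uterine epithelium, at 2.48, and Wnt7a, which maintains Hoxa10 and Hoxa11 in the uterus, at −1.71. Chosen after their values were seen, Emx2 and Itgb3 are genes that HOXA10 is known to repress and to activate. Emx2 read 8.20, 8.31 and 8.21 in control and 7.68, 7.57 and 7.62 in mutant, a log2 fold change of −0.62 ± 0.08 with an adjusted p of 0.00376 by limma. Itgb3 read 5.63, 5.45 and 5.49 in control and 4.61, 4.34 and 4.39 in mutant. Its log2 fold change was −1.07, with an adjusted p of 0.00097 by limma. A second Itgb3 set, with a mean below an intensity of 16, was at −0.03. Its adjusted p was 0.889 by limma over all probe sets.

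Among 11 genes linked to the Müllerian duct, 3 were higher and 2 lower, beside 5.61% and 6.36% of all genes, with a median log2 fold change of −0.07. Amhr2, the receptor of anti-Müllerian hormone, had a log2 fold change of 5.56, and Wnt4, which the duct needs to form, had 0.98. Wnt7a and Emx2 stand in this list as well.

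Markers of other cell types were read on the same arrays, since Hox genes also mark fat, skin and other parts of the tract. Summed intensities of 8 adipocyte markers were 1047, 1477 and 229 in control replicates 1 to 3 and 2890, 3958 and 2544 in mutant replicates 1 to 3. All 8 had every mutant array above every control array, as 14.9% of all genes had, and 4 were called higher, Retn, Cidec and Lipe with the largest changes, beside 5.61% of all genes. Cidea and Lep, named after their values were seen, had means below an intensity of 16. On the same arrays, in the same order, Hoxc4 read 2.91, 2.98 and 2.52 in control and 4.49, 4.41 and 4.10 in mutant. Hoxc8 read 2.06, 2.44 and 2.26 in control and 3.00, 4.04 and 2.47 in mutant. The part of fat tissue in the Hoxc4 and Hoxc8 values was not tested.

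The counts of other markers called after adjustment are to be read beside the same 5.61% of all genes called higher and 6.36% called lower. At an unadjusted p under 0.05, limma had 12.0% of all genes higher and 14.4% lower, and the methods' t-test 10.6% and 12.2%. Of genes with means above an intensity of 16, 17.2% were called either way, and of those below it 5.19%. All epithelial, stromal and myometrial markers had means above 16. Summed intensities of 13 squamous markers of cervix and vagina were 70.9 to 85.0 in control and 171 to 324 in mutant, with 4 called higher, among them Krt15, Sprr1a and Trp63, and 11 with means below an intensity of 16. Oviduct markers summed to 514 to 682 in control and 748 to 1050 in mutant, with 1 of 10, Foxj1, called higher. Beside these sums, Hoxa13, a gene of the lower tract, and Hoxa9, a gene of the oviduct, had overlapping groups, as given above. Epithelial markers summed to 5361 to 6467 in control and 4176 to 5944 in mutant, with 2 of 13 lower, Elf3 and Krt18. Stromal markers summed to 26491 to 27918 and 25246 to 26996, with 1 of 13 higher, Hand2, and 1 lower, Nt5e. Muscle markers of the myometrium summed to 14398 to 16408 and 14098 to 16344, with 0 of 11 called by limma, which had 1 higher and 2 lower at an unadjusted p under 0.05, and 0 by the methods' t-test after adjustment, which had 1 higher and 1 lower. Leukocyte markers summed to 1037 to 1139 and 1216 to 1236, with 1 higher and 1 lower of 13, Lyz2 and Ncr1, endothelial markers to 1037 to 1175 and 1035 to 1228, with 1 of 11 lower, Tek. Ovary markers summed to 131 to 142 and 105 to 127, with 0 of 12 called by limma, 0 higher and 1 lower at an unadjusted p under 0.05, and 0 by the methods' t-test at either threshold. The part of these cell types in the Hox values was not tested.

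The 9 uterine markers all had means above an intensity of 16, which 10253 of 18193 genes in all had, with 2 higher, Foxa2 and Hand2, and 2 lower, Wnt7a and Pgr. Pgr, the fourth by size of change, was named after its values were seen. Mutant mice carry Cre at 1 Pgr allele, and the alleles of the control arrays are not known. An effect of that allele on Pgr cannot be told apart from one of stabilised β-catenin. Ctnnb1, the targeted gene, read 11.51, 11.54 and 11.53 in control and 11.72, 11.92 and 11.93 in mutant, a log2 fold change of 0.33 with an adjusted p of 0.0498 by limma. It did not pass in 12 of 18 alternative settings, 5 of them with 1 array left out, and the adjusted p reached 0.155. The place of its probes relative to exon 3 was not known here, so this does not check the deletion. The arrays were alike in scale, with a median intensity of 7.23 to 7.42 and 62.3 to 62.6% of probe sets below 16. Pearson's r, taken across probe sets that are not replicates of each other, was 0.992 to 0.996 within controls, 0.994 within mutants and 0.981 to 0.990 between the groups.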

How the data were processed

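The authors deposited 1 linear intensity per probe set for each of 6 Affymetrix mouse arrays. RMA, named in the submitters' processing notes without a version, corrects background, normalizes quantiles and summarizes probes. The deposited intensities were floored at 1, which changed 0 values, and log2 was taken. Of 45037 probe sets, 34945 had 1 symbol in GEO's platform annotation, 932 had several and 9160 none. Several sets read 9010 genes, and the set with the highest mean was used.

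Sample titles gave the groups. A linear model of group alone was fitted with limma 3.58.1 (R 4.3.3, lmFit, eBayes), and p-values were adjusted by Benjamini-Hochberg over 18193 genes, with a threshold of 0.05. Errors on fold changes are limma's standard errors. The members and lists were chosen with earlier results of these data known, and no list was tested as a set. Named genes are the Hox genes, Ctnnb1 and, from each other list, at most 3 past the threshold, taken by size of change, or else 2 taken by smallest p. Genes beyond this rule are marked above or below as named after their values had been seen. On simulated arrays, 9 of 154 calls for mutant against control over 18193 genes were false. Array number limits the precision. Alternatives were other scalings, probe set rules, low-value filters, variance models and leaving out each array. ChIP-seq, human and cell line experiments were not analysed here.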

Additional observations from a re-analysis of the deposited data

How the results depend on the processing

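Over 18 alternatives, between 0 and 4 Hox genes were called higher and 0 lower. Hoxc4 passed in all but 2 of the 17 alternatives that tested it, Hoxd11 in all but 3 of 18 and Hoxb9 in 9 of 18. With a floor of 16, 1 Hox gene, Hoxd11, was called higher, and 283 genes in all were higher and 243 lower; the cause was not tested. There Hoxc4 had a log2 fold change of 0.33 with an adjusted p of 0.228 by limma. With the spread of each gene alone, the methods' t-test, 0 Hox genes, 105 genes higher and 39 lower passed after Benjamini-Hochberg adjustment; the cause was not tested. By a fold above 1.5 and an unadjusted p under 0.05, Hoxb9, Hoxc4 and Hoxc8 passed, and 757 genes in all were lower. Leaving out each array in turn gave 1 to 3 Hox genes higher, 480 to 971 genes higher and 372 to 1139 lower. The single Hox call was Hoxc4, without control replicate 1. Quantile normalization and centring on medians moved Hoxb9 to adjusted p-values of 0.0553 and 0.0507 by limma. Leaving out the lowest 40% of genes kept 15 Hox genes, Hoxc4 not among them. The replicate numbers mark nothing that the labels state, and same-numbered arrays correlated at 0.01, 0.21 and 0.16 in their deviations, with 5 of 6 arrays correlating best with their own number. With the replicate block, 3 Hox genes were called, Hoxb9 at 0.0154 and Hoxd11 at 0.0222. Of 576 combinations of a Hox gene and an alternative, 17 changed the call. The sign was counted as changed in 38, in 20 genes that were not called. That count includes genes whose arrays were all set to 16 by the floor, where the groups did not differ and the sign is rounding. Signal near background limits the 21 dim Hox genes.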

Other observations

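Outside the clusters, 59 other homeobox genes were measured, and 5 were higher and 4 lower in the mutant, beside 5.61% and 6.36% of all genes. Their median log2 fold change was −0.06. Barx2, known from smooth and skeletal muscle, fell by 1.17 on the log2 scale, with an adjusted p of 0.0014 by limma. Zeb1, a repressor of epithelial genes, rose by 0.83, with an adjusted p of 0.00142, and Irx5, of the Iroquois family, rose by 0.87, with an adjusted p of 0.0260. The other called genes, named here after their values were seen, were Msx2, Prrx1 and En2, at 0.65, 0.55 and 0.51, and Dlx6, Emx2 and Dlx5, at −0.65, −0.62 and −0.51. Dlx5 and Dlx6 are neighbours in the genome, and both were lower.

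Probe sets that carry 2 Hox symbols name no single gene and entered no comparison, 3 in all. A set for Hoxd4 and Hoxd3 read 3.93, 3.80 and 3.71 in control and 3.85, 3.96 and 3.85 in mutant. Another for the same pair read 4.51, 4.14 and 3.99 in control and 4.53, 4.82 and 4.23 in mutant. A set for Hoxb8 and Hoxb7 read 5.82, 5.98 and 5.91 in control and 5.57, 5.53 and 5.88 in mutant.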
